A study of Mus musculus with 8 samples.

Results

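The sarcomeric myosin heavy chain genes and linc-Myh, a long non-coding RNA gene that lies among them, were followed as a family of 10 genes out of the 48328 in the deposited table. They were chosen by gene name, for the family they form and with their measured FPKM in the 2 genotypes known (Myh1, Myh2, Myh3, Myh4, Myh6, Myh7, Myh7b, Myh8, Myh13 and 2310065F04Rik, the Ensembl name of linc-Myh), and all 10 were found. RNA of the tibialis anterior, the fast muscle at the front of the shin, was sequenced from C57BL/6J mice aged 24 months, 4 of them K320E-skm (the mutants) and 4 wild-type, with 2 males and 2 females by label in each genotype. K320E is a dominant-negative form of Twinkle, the helicase that unwinds mitochondrial DNA for replication, and is expressed in the skeletal muscle of these mice, as is known of the strain. The promoter that drives it is not given in the sources used here. The values are FPKM (fragments per kilobase of transcript, scaled to the mapped fragments of the library), which are per length and so can be set beside each other between genes. Since their measured genotype difference in these same libraries took part in the choice, the genotype values are a description and support nothing further.

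Myosin heavy chain is the motor protein of the thick filament, and each muscle fibre is typed by the form it makes. In rodent limb muscle Myh4 encodes the fastest form (IIb), Myh1 the IIx form, Myh2 the IIa form and Myh7 the slow form, while Myh3 and Myh8 are the embryonic and perinatal forms that return in regenerating fibres. The fast, developmental and extraocular genes stand side by side on chromosome 11, and linc-Myh is transcribed from the same cluster, upstream of Myh2, in fast fibres, where it has been linked to the fast gene programme.

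The libraries held summed FPKM of 731824 to 858029 and 10167 to 11581 genes at 1 FPKM or more, and fragment counts per library are not known. Twnk, the gene of Twinkle, had 3.82 to 5.06 FPKM in the K320E-skm libraries and 2.16 to 2.70 FPKM in the wild-type libraries, without overlap. Muscle creatine kinase (Ckm) was at 5421 to 7408 FPKM in the 8 libraries, and the satellite cell genes Pax7 and Myf5 were at 0.0524 to 0.365 FPKM and 0.176 to 0.495 FPKM. One library went against its sex label. K320E-skm 4 is labelled male, but had 10.2 FPKM of Xist and a sum of 0.0935 FPKM over 4 Y-linked genes, whereas the other 3 labelled males had 38.7 to 47.3 FPKM of the Y-linked genes and at most 0.0226 FPKM of Xist. For the tested members other than Myh4, the genotype difference is given with and without it. The median genotype difference over the 10521 genes tested was -0.14 on the log2(FPKM + 1) scale as deposited and 0.00 after the libraries were rescaled by median ratios, so part of a negative difference as deposited is that shift, and rescaled values are given beside most genotype differences.

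The promoters of linc-Myh, of the adult fast genes Myh2, Myh1 and Myh4, and of Myh8 are shown first, the last because it shares a run of letters with the fast genes. They are the 300 bases from 250 before to 50 after each RefSeq gene start (GRCm38.p6), written 5′ to 3′ on the gene's strand. Capitals mark TATAAA, on either strand, and the longest run of letters that the promoters of Myh1, Myh2, Myh4 and Myh8 have in common. The linc-Myh promoter is chr11:67120031-67120330 (- strand), and those of Myh2, Myh1, Myh4 and Myh8 are chr11:67170777-67171076, chr11:67199852-67200151, chr11:67237562-67237861 and chr11:67276874-67277173 (all + strand).
linc-Myh: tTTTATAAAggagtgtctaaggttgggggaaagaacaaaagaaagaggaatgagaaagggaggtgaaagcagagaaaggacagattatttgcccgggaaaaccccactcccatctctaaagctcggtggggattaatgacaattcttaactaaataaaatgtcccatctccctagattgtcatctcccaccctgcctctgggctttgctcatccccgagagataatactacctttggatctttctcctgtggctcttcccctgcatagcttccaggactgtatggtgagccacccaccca
Myh2: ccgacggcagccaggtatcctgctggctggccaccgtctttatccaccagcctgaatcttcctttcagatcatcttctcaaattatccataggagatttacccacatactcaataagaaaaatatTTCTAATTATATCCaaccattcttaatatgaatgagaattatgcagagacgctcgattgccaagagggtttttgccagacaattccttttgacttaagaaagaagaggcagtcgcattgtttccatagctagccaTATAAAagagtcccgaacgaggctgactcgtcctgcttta
Myh1: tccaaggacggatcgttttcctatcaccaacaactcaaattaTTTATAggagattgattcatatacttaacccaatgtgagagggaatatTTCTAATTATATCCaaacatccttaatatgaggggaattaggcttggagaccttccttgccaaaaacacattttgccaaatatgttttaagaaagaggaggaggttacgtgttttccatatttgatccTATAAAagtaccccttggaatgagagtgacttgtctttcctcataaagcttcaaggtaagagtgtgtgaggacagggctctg
Myh4: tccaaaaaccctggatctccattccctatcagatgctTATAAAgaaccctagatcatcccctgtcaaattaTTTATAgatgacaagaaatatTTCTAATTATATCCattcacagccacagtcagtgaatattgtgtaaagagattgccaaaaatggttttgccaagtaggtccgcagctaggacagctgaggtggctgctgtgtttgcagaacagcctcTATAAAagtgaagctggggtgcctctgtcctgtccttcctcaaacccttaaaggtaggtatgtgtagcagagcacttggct
Myh8: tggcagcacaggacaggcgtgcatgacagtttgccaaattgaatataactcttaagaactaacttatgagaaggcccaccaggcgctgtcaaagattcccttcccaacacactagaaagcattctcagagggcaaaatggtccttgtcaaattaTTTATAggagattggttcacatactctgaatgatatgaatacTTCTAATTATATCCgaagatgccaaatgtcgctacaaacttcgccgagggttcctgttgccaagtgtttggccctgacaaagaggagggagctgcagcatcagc

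The run shared by the 4 genes is 14 letters long, TTCTAATTATATCC, and begins at position -160 in Myh1, -158 in Myh4, -125 in Myh2 and -54 in Myh8, counted from the gene start. It was found by comparing these promoters with each other, and among 32851 RefSeq mouse promoters of the same length these were the 4 that held it on either strand, 0.0122% of all. linc-Myh, which is transcribed in the opposite direction, did not hold it. TATAAA stood at -32 in Myh1, -31 in Myh4 and -29 in Myh3. In Myh2 and Myh6 it stood past the annotated start, at 10 and 1. All these positions, those of the shared run included, depend on where each gene start was annotated. TATAAA was on some strand and position of 7 of the 10 members, against 13.6% of all promoters. The E-box CANNTG, the core site of myogenic basic helix-loop-helix factors, was in 7 of the 10 members against 72.3% of all promoters, and not in Myh1, Myh2 or linc-Myh. TCAGGTT, the core of the MEF3 site, was in none of the 10 windows and in 4.07% of all promoters. The MEF2 pattern that was searched matched none of the windows and 0.557% of all promoters. It does not take in every form of the site. The letters around the reverse-strand TATAAA of Myh1, Myh4 and Myh8, for instance, were not tested against looser forms. A MEF2 site in these windows is therefore not excluded. A CArG box, the serum response factor site, was in Myh4 and Myh13 and in 1.63% of all promoters. The Myh13 window begins at chr11:67326853, inside the gene as GENCODE annotates it, which starts at chr11:67321658. The CArG box there lies 22 past the RefSeq start. Matches in that window, the E-box included, may therefore not be in a promoter. Both strands were searched, the shared run overlaps none of the other motifs in capitals, and a match is a description of letters, not of binding.

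linc-Myh (2310065F04Rik, ENSMUSG00000087410, a lincRNA at chr11:67112461-67120080 on the - strand) lies 10.2 kb past the end of Myh3 and 50.9 kb before the start of Myh2. The row read 22.2, 8.95, 7.23 and 11.9 FPKM in K320E-skm libraries 1 to 4 and 44.4, 14.1, 52.0 and 25.4 FPKM in wild-type libraries 1 to 4. The highest K320E-skm library, a labelled male, was above the lowest wild-type library, a labelled female, so the genotypes overlapped. Within each sex label they did not: the K320E-skm males had 22.2 and 11.9 FPKM against 44.4 and 52.0, and the females 8.95 and 7.23 against 14.1 and 25.4. The library whose label was contradicted, at 11.9 FPKM, was below the wild-type libraries of either sex label. Among all tested genes, 14.2% were lower in K320E-skm without overlap within each sex label. The means were 12.6 ± 6.69 and 34.0 ± 17.3 FPKM (SD, n = 4), 2.71-fold apart.

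The fitted genotype difference of linc-Myh, with sex label as a term, was -1.32 (SE 0.23) on the log2(FPKM + 1) scale and -1.15 (SE 0.26) after rescaling. Without K320E-skm 4 it was -1.12 (SE 0.21). Of all tested genes, 41 had a difference at least as large in either direction, this gene included. None of the 8 members tested passed limma's test at an adjusted p of 0.05, in a table where 2 of 10521 genes did (0.019%). At an unadjusted p of 0.05, linc-Myh and Myh8 passed, against 13.1% of all genes.

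**Figure D1:**
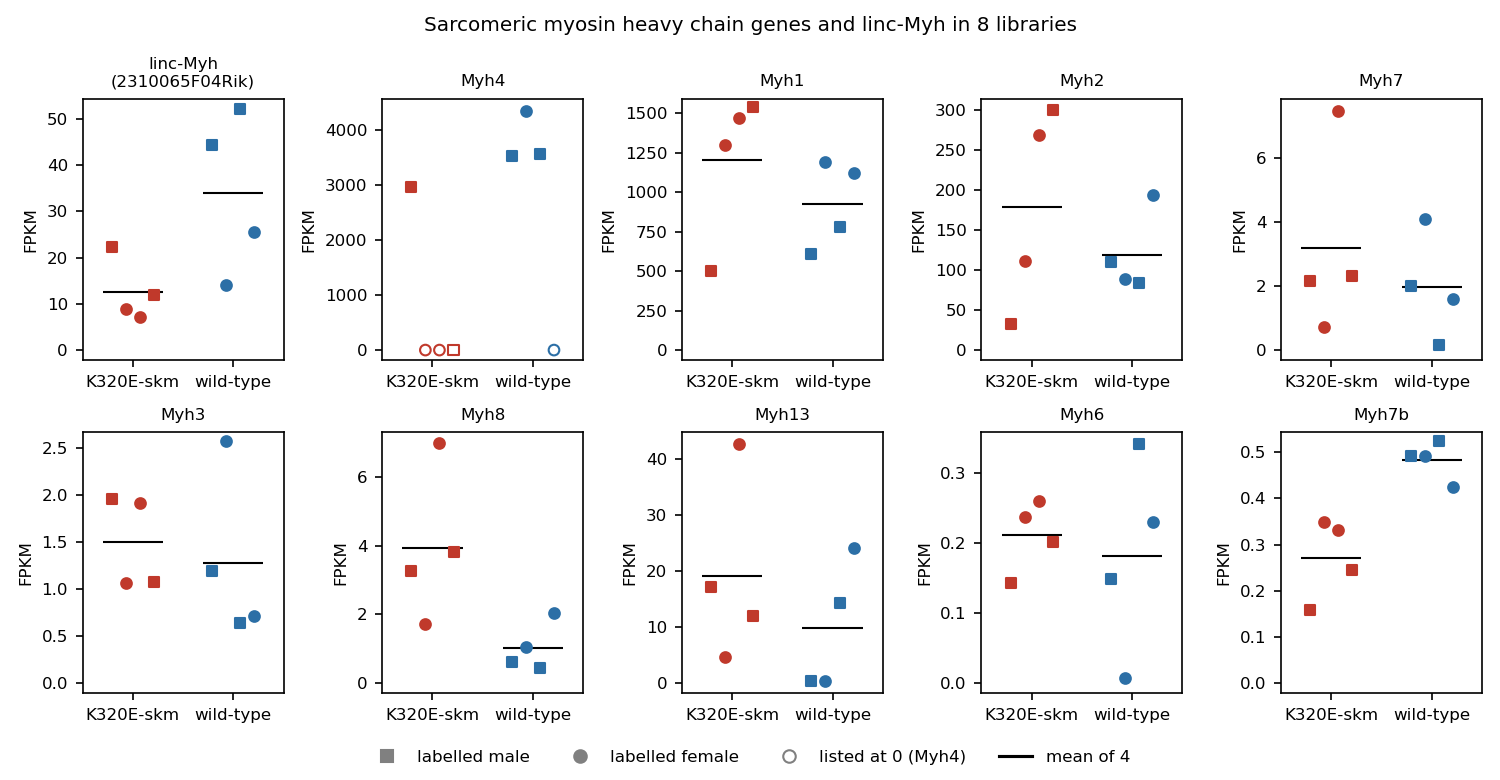
FPKM of each member in each library (linear axes, 1 panel per gene), K320E-skm in red and wild-type in blue, squares for labelled males and circles for labelled females, with the mean of 4 as a bar except for Myh4. linc-Myh sits between 7.23 and 22.2 FPKM in the mutants and between 14.1 and 52.0 FPKM in wild-type, and the open symbols of Myh4 are the 4 libraries listed at 0.

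The genes whose levels followed linc-Myh most closely from library to library were ranked by the root mean square difference of mean-centred log2(FPKM + 1) over the 8 libraries. Nearest was Pfkfb3, which makes the enzyme that sets the level of fructose 2,6-bisphosphate and thereby glycolytic rate, at 0.37. Amd1, the S-adenosylmethionine decarboxylase of polyamine synthesis, was also at 0.37, Actr3b, an actin-related protein, at 0.38, Mrln, the micropeptide myoregulin that inhibits the calcium pump, at 0.41, and Fam131a at 0.42. The spread of linc-Myh about its own mean was 0.92 on the same scale. These 5 profiles include the genotype difference that the choice of linc-Myh used, and their own differences were -1.32 for Pfkfb3, -1.23 for Amd1, -0.68 for Actr3b, -0.78 for Mrln and -0.76 for Fam131a. The mean of Pfkfb3 was 16.9 FPKM in the mutants and 39.6 FPKM in wild-type, and that of Amd1 was 13.5 and 35.9 FPKM.

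Myh4 (ENSMUSG00000057003, chr11:67238029-67260446, + strand), the IIb gene, was the most abundant member wherever it was given a value. It was at 2965 FPKM in K320E-skm 1 and at 3537, 4357 and 3567 FPKM in wild-type 1, 2 and 3. The row held a 0 in wild-type 4 and in K320E-skm 2, 3 and 4. An exact 0 beside such levels can be an estimate that failed: of 382 protein-coding genes that reached 100 FPKM, Myh4 was the only 1 listed at 0 in any library. None of the 3 libraries with Y-linked transcripts and 4 of the 5 without them had the 0, and the part of sex, or of anything that goes with it, in this was not tested. No mean over the zeros is given as a level of the gene. Taken as deposited, the fit gave -6.04 (SE 2.72), or -5.91 (SE 2.96) after rescaling, and with the zeros as missing values -0.26 (SE 0.35), where K320E-skm has a single library. In bulk RNA, fewer fibres of a type and less RNA per fibre cannot be told apart.

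Myh1 (ENSMUSG00000056328, chr11:67200052-67224575, + strand), the IIx gene, came next. It was at 502, 1299.8, 1469 and 1539 FPKM in K320E-skm libraries 1 to 4, and at 607, 1189, 779 and 1123 FPKM in the wild-type libraries. The genotypes overlapped widely, since K320E-skm held both the lowest and the highest value. The means were 1203 ± 478 and 925 ± 278 FPKM (SD, n = 4) and the fitted difference was 0.31 (SE 0.31), or 0.49 (SE 0.34) after rescaling. Without K320E-skm 4 it was -0.03 (SE 0.21), so the sign of the difference rests on that library. Myh1 was at 1123 to 1539 FPKM in the libraries with Myh4 listed at 0, and at 502 to 1189 FPKM in those with a Myh4 value. The part of the Myh4 zeros in the genotype difference of Myh1 was not tested.

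Myh2 (ENSMUSG00000033196, chr11:67171027-67197517, + strand), the IIa gene, was more variable. Its values were 32.8, 111, 269 and 301 FPKM in the mutants and 110, 89.3, 83.6 and 194 FPKM in wild-type, a 9.16-fold span with both ends in K320E-skm. The fitted difference was 0.23 (SE 0.60) as deposited, 0.41 (SE 0.65) after rescaling and -0.37 (SE 0.46) without K320E-skm 4. No direction can be given for it. The nearest library profiles to Myh2 were those of Myl3, the slow and cardiac essential light chain, at a root mean square difference of 0.38, the antisense gene 9430073C21Rik at 0.41, Fhl1, a LIM-domain protein of muscle, at 0.46, Smtnl1, a smoothelin-like protein, at 0.54, and the antisense gene Myhas at 0.58, against a spread of 0.96 of Myh2 itself.

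**Figure D2:**
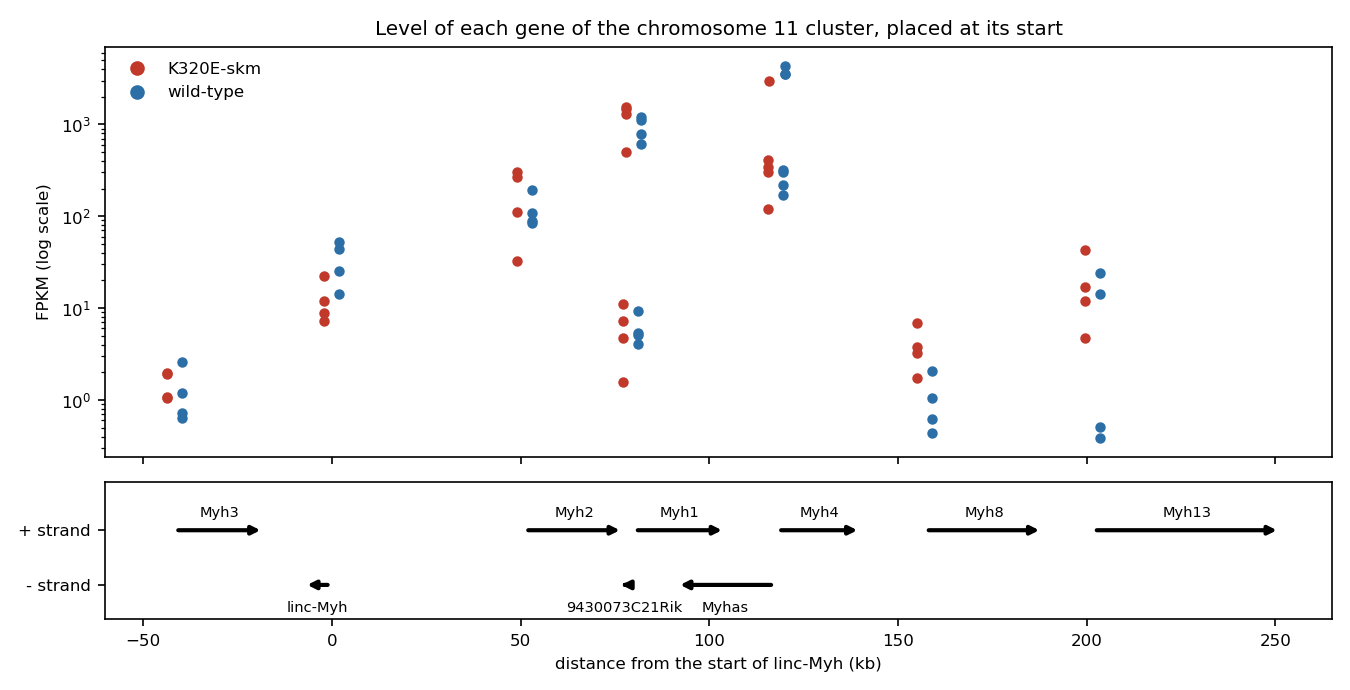
FPKM in each library (upper panel, log axis) of each gene of the chromosome 11 cluster with a value above 0, placed at its annotated start by distance in kb from the start of linc-Myh, over the position and strand of the genes (lower panel, arrows in the direction of transcription), K320E-skm points to the left in red and wild-type to the right in blue. The zeros of Myh4 are not drawn; linc-Myh stands at 7.23 to 52.0 FPKM between Myh3, at 0.639 to 2.57 FPKM, and Myh2, at 32.8 to 301 FPKM.

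The cluster from Myh3 to Myh13 covers 293 kb, and 2 antisense genes in it were also measured. Myhas (chr11:67211256-67237573, - strand) overlaps Myh1 by 13.3 kb and begins close to the start of Myh4, and its level ran from 120 FPKM in K320E-skm 1 to 409 FPKM in K320E-skm 4. For every 100 FPKM of Myh1 there were 23.9, 23.5, 23.4 and 26.6 FPKM of Myhas in the K320E-skm libraries and 28.0, 26.8, 27.8 and 27.2 FPKM in the wild-type libraries. The ratio spanned 1.19-fold while Myhas itself spanned 3.41-fold. The libraries were made with a stranded kit, but whether the authors' quantification used strand is not given in the sources used here, so fragments of Myh1 and Myhas in the overlap cannot be told apart. The other antisense gene, 9430073C21Rik, overlaps the end of Myh2 by 1.84 kb and was at 2.67 to 6.41 FPKM for every 100 FPKM of Myh2. linc-Myh had no such steady ratio: it stood at 0.492 to 7.31 FPKM for every 100 FPKM of Myh1.

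The heavy chain messages also share sequence. Of all 50-base windows of the longest annotated protein-coding transcript of Myh2, 26.9% were identical to a window of another member, and the share was 26.7% for Myh1, 22.6% for Myh6, 22.2% for Myh7, 21.4% for Myh8, 18.9% for Myh4, 8.45% for Myh13 and 4.81% for Myh3. Myh7b and linc-Myh shared no such window with another member. The longest stretch common to Myh1 and Myh2 is 268 bases across exons 23 and 24, at chr11:67213219-67213451 and chr11:67213563-67213597 in Myh1 and chr11:67188318-67188550 and chr11:67188662-67188696 in Myh2 (GRCm38, + strand). It is printed because a fragment lying wholly within it fits both genes, and the capitals mark the 155 bases that Myh8 has as well.
Myh1 and Myh2: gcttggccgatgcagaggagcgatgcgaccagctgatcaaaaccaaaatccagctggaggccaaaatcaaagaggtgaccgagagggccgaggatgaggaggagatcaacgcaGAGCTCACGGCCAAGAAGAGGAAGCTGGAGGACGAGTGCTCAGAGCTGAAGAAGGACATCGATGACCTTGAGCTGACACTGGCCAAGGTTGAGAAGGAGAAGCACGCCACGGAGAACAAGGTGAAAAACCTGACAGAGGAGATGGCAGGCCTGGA
Values of the members that share windows are therefore uncertain to the extent that fragments were divided among them.

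The share of each gene in the summed FPKM of the protein-coding members, with Myh4 left out because of its zeros, does not depend on how a library was scaled. Myh1 made up 81.7% to 92.4% of this sum and Myh2 5.87% to 16.2%. The Myh2 share was 11.2% ± 5.11 in the mutants and 11.5% ± 3.96 in wild-type (SD, n = 4), a difference of -0.31 percentage points that is far below the spread in either genotype. The Myh8 share was 0.325% ± 0.206 against 0.0923% ± 0.0430, with overlap. In the 4 libraries where Myh4 had a value, Myh4 took 77.2% to 84.1% of the sum with it included.

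**Figure D3:**
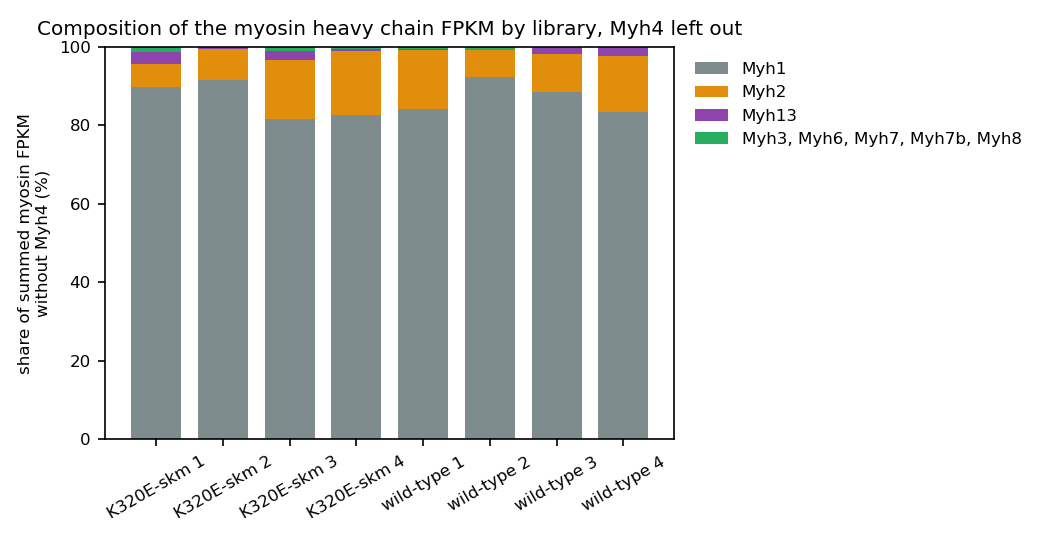
Share (%) of each protein-coding member in the summed FPKM of those members without Myh4, 1 stacked bar per library. Myh1 fills 81.7% to 92.4% of each bar and Myh2 5.87% to 16.2%, with low and high Myh2 shares in both genotypes.

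Slow and cardiac forms were near the bottom of the family. Myh7 (ENSMUSG00000053093, chr14:54970684-54994626, - strand) was at 2.16, 0.733, 7.49 and 2.33 FPKM in the mutants and at 2.00, 4.11, 0.153 and 1.59 FPKM in wild-type, and the genotypes overlapped. Its fitted difference was 0.44 (SE 0.49), 0.58 (SE 0.53) after rescaling and 0.35 (SE 0.54) without K320E-skm 4. It rested on single libraries, falling to 0.054 without K320E-skm 3 and to 0.091 without wild-type 3, and standing at 0.97 without K320E-skm 2. The 3 genes nearest to the Myh7 profile were all slow troponins: Tnnt1 at a root mean square difference of 0.22, Tnni1 at 0.25 and Tnnc1 at 0.26, followed by the interferon-induced GTPases Iigp1 at 0.36 and Igtp at 0.38, with 0.82 as the spread of Myh7 itself. Mean Tnnt1 was 8.68 FPKM in the mutants and 6.79 FPKM in wild-type.

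Myh6 (chr14:54941921-54966927, - strand), the cardiac alpha form next to Myh7, was at 0.144 to 0.260 FPKM in the mutants and 0.00739 to 0.341 FPKM in wild-type. It did not reach the filter of 1 FPKM in 4 libraries and was not tested. Myh7b (chr2:155611212-155634307, + strand), an ancient slow-type heavy chain, was also below the filter. It was at 0.159, 0.350, 0.332 and 0.246 FPKM in the mutants and at 0.491, 0.492, 0.525 and 0.425 FPKM in wild-type, so the genotypes did not overlap. Of the 6271 genes above 0 in every library that never reached 1 FPKM, 4.32% were lower in all 4 K320E-skm libraries. Levels this low rest on few fragments, and fragment counts are not known.

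These 3 genes carry the myomiRs, microRNAs in their introns, and are thereby tied to each other. The mature strands are shown, from RefSeq (GRCm38.p6), with the seed (bases 2 to 8) in capitals, because they fall into groups by seed. They lie in intron 29 of Myh6, intron 31 of Myh7 and intron 19 of Myh7b, at chr14:54949072-54949093 (- strand), chr14:54975710-54975731 (- strand) and chr2:155622893-155622913 (+ strand).
miR-208a-3p (Myh6): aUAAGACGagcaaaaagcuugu
miR-208b-3p (Myh7): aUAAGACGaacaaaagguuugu
miR-499-5p (Myh7b): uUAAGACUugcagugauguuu
The miR-208a-3p and miR-208b-3p strands have the seed UAAGACG, and miR-499-5p has UAAGACU. The table lists the precursor genes of all 3 at 0 in every library, and a library of this kind does not measure mature microRNAs.

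Myh8 (ENSMUSG00000055775, chr11:67277124-67308634, + strand), the perinatal form, was at 3.27, 1.74, 6.96 and 3.80 FPKM in the mutants and at 0.621, 1.06, 0.432 and 2.04 FPKM in wild-type. Only K320E-skm 2 was below the highest wild-type library. The means were 3.94 ± 2.20 and 1.04 ± 0.720 FPKM (SD, n = 4), 3.80-fold apart. The wild-type mean is close to the filter of 1 FPKM, and fragment counts are not known. The fitted difference was 1.24 (SE 0.31), 1.35 (SE 0.35) after rescaling and 1.13 (SE 0.34) without K320E-skm 4. It was 1.61 (SE 0.17) without K320E-skm 2, the mutant library that lay within the wild-type range. Without K320E-skm 3, the highest library, it was 0.99 (SE 0.29). Wild-type 4, the highest in Myh8 of its genotype, was the 1 wild-type library with Myh4 listed at 0. In the mutants, K320E-skm 1, with a Myh4 value, was at 3.27 FPKM of Myh8, within the 1.74 to 6.96 FPKM of those listed at 0. Of the transcript windows of Myh8, 9.31% are also in Myh4. The part of the Myh4 zeros in the genotype difference of Myh8 was not tested.

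Myh3 (chr11:67078300-67102291, + strand), the embryonic form, did not show that gap. It was at 1.95, 1.06, 1.92 and 1.08 FPKM in the mutants and at 1.20, 2.57, 0.639 and 0.717 FPKM in wild-type, with the highest value in wild-type 2 and a fitted difference of 0.19 (SE 0.25), 0.29 (SE 0.26) after rescaling and 0.25 (SE 0.28) without K320E-skm 4. Myh13 (chr11:67321658-67371586, + strand), the form of extraocular muscle, had the widest span of the tested members that have a value in every library. It was at 17.2, 4.75, 42.7 and 12.1 FPKM in the mutants and at 0.381, 0.511, 14.3 and 24.2 FPKM in wild-type. The wild-type libraries split into 2 near 0 and 2 within the K320E-skm range, and the fitted difference of 1.55 (SE 1.00) lay within that spread, as did 1.66 (SE 1.11) after rescaling and 1.61 (SE 1.11) without K320E-skm 4.

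**Figure D4:**
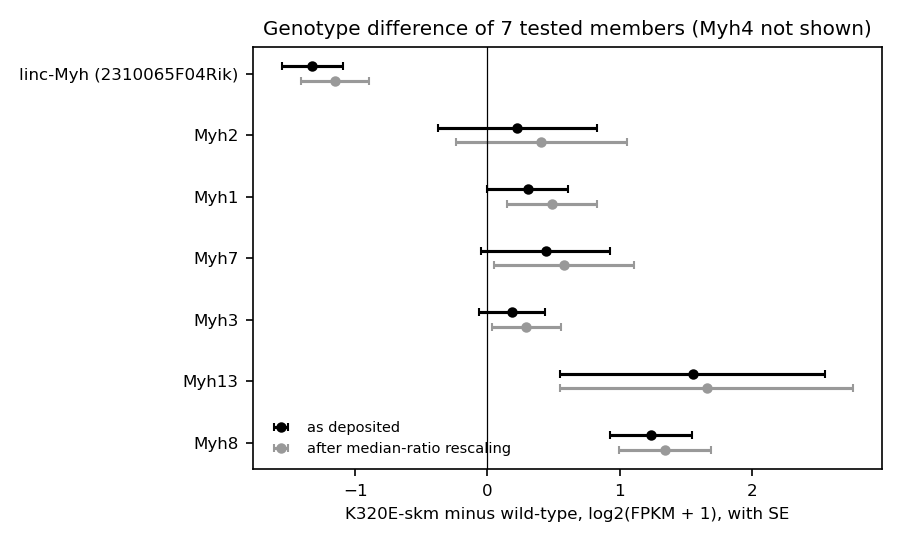
Fitted difference, K320E-skm minus wild-type on the log2(FPKM + 1) scale, with its SE as bars, for the 7 tested members other than Myh4, as deposited (black) and after median-ratio rescaling (grey). linc-Myh is the 1 member left of 0, at -1.32, Myh8 stands at 1.24, and the bars of Myh2, Myh1, Myh7 and Myh3 as deposited cross 0.

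Placed by mean level over the 8 libraries, the order was Myh1 (1064 FPKM), Myh2 (149), linc-Myh (23.3), Myh13 (14.5), Myh7 (2.57), Myh8 (2.49), Myh3 (1.39), Myh7b (0.378) and Myh6 (0.196), with Myh4 above Myh1 in each library where it had a value. The ranges of Myh1 and Myh2 did not touch, nor did those of Myh3 and Myh7b. The other neighbours overlapped in range, but within each of the 8 libraries Myh2 was above linc-Myh and Myh7b above Myh6. linc-Myh was above Myh13 and Myh13 above Myh7 in 6 of 8 libraries, Myh7 above Myh8 in 3 and Myh8 above Myh3 in 5, so the order among these 5 genes varied from library to library.

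Sex was not used to choose the genes, so its contrast is a test on them. With the labels as given, linc-Myh was 1.11 (SE 0.23) higher in males on the log2(FPKM + 1) scale and Myh1 0.70 lower (a male minus female difference of -0.70, SE 0.31). After rescaling these were 1.08 (SE 0.26) and -0.74 (SE 0.34). These were the 2 members with an unadjusted limma p under 0.05 (0.000878 and 0.0471), against 2.7% of all genes. After Benjamini-Hochberg adjustment over all genes both had a limma adjusted p of 1.00, and no gene of the table passed (0% of 10521, with 284 at an unadjusted p under 0.05).

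Without the contradicted library the groups drew apart. Myh1 was then at 502, 607 and 779 FPKM in the 3 labelled males and at 1123 to 1469 FPKM in the 4 females, without overlap, and the difference was -1.03 (SE 0.21). Of the 10401 genes tested in this split of 3 against 4, 4.1% did not overlap. The split nearly coincides with the zeros of Myh4. The 3 males had a Myh4 value, and of the females K320E-skm 2, K320E-skm 3 and wild-type 4 were listed at 0. Of the 50-base windows of Myh1, 10.5% are also in Myh4, and the part of the Myh4 zeros in the Myh1 gap was not tested. linc-Myh was at 22.2, 44.4 and 52.0 FPKM in those males and at 7.23 to 25.4 FPKM in the females, with wild-type female 4 above the K320E-skm male, and the difference was 1.32 (SE 0.21). Neither passed over all genes: limma's adjusted p was 0.33 for Myh1 and 0.13 for linc-Myh, where 5 of 10401 genes passed. Myh2 was -1.22 (SE 0.46) in the same fit, with a limma adjusted p of 0.87. Myh4, with its zeros as deposited, was 8.06 (SE 2.38) there, with a limma adjusted p of 0.64. The genotype by sex label interaction was fitted on all 8 libraries alone, with K320E-skm 4 as male by its label. In that fit the genotype difference of a member was not shown to depend on sex label. The smallest unadjusted limma interaction p of a member was 0.298, for Myh8.

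**Figure D5:**
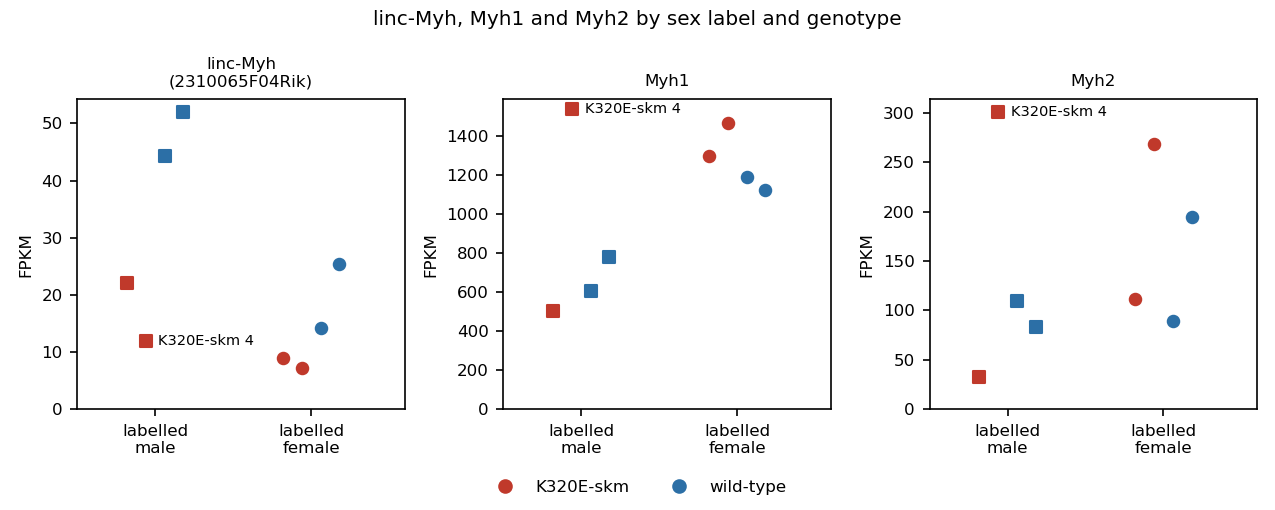
FPKM of linc-Myh, Myh1 and Myh2 (linear axes from 0) by sex label, K320E-skm in red and wild-type in blue, with K320E-skm 4 named. In the Myh1 panel K320E-skm 4, at 1539 FPKM, stands above all other labelled males, which are at 502 to 779 FPKM, and beside the females at 1123 to 1469 FPKM.

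Genes that act with the heavy chains were counted in lists, none of whose members passed the adjusted test, so that signs and medians are given as a description beside the all-gene median of -0.14. With a negative median, more of the tested genes were negative than positive as deposited, but their share was not counted. Signs in this and the following lists were counted as deposited and not after rescaling. Of 20 partners of the fast form, 19 had a negative difference, with a median of -0.34, or -0.15 after rescaling, when that of all genes was 0.00. At an unadjusted limma p of 0.05, 7 of the 20 passed, against 13.1% of all genes. The 4 with the smallest p were Mylk2, the kinase of the regulatory light chain (-0.67, SE 0.15), Ampd1, the AMP deaminase of fast fibres (-0.85, SE 0.20), Pvalb, the calcium buffer parvalbumin (-0.76, SE 0.21), and Casq1, the calcium store protein calsequestrin (-0.61, SE 0.18). After rescaling they stood at -0.49, -0.67, -0.57 and -0.43. Pvalb was 2635 ± 820 FPKM in the mutants and 4356 ± 723 FPKM in wild-type. Of 14 slow partners, 10 had a positive difference, with a median of 0.27, or 0.43 after rescaling. The slow list was led by Myoz2, a Z-disc protein, at 0.47 (SE 0.25), 0.65 after rescaling and 0.27 without K320E-skm 4, and 0 of 14 passed at an unadjusted limma p of 0.05. Without K320E-skm 4 the medians were -0.31 for the fast and 0.21 for the slow list.

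Regulators of fibre type came next. Of 40, 36 were tested, 24 with a negative and 12 with a positive difference, and the median of -0.21 became -0.06 after rescaling. At an unadjusted limma p of 0.05, 13 of the 36 passed, against 13.1% of all genes. The smallest p were those of Sox6, a repressor of slow genes (-0.44, SE 0.13), Six4, a homeodomain factor of fast genes (-0.37, SE 0.11), the transcriptional co-factor Eya4 (-0.50, SE 0.15) and Tbx15, a T-box factor of glycolytic fibres (-0.51, SE 0.16). After rescaling, Sox6, Six4, Eya4 and Tbx15 stood at -0.26, -0.22, -0.34 and -0.33.

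Of 10 tested genes for myosin folding and assembly, 7 were negative, with a median of -0.17, or 0.00 after rescaling. Trim63, the ubiquitin ligase MuRF1 that marks heavy chains for breakdown, was at 103 ± 61.3 FPKM against 58.1 ± 7.31 (0.68, SE 0.30, or 0.86 after rescaling), and the chaperone Hsp90aa1 was at 0.27 (SE 0.13, or 0.44 after rescaling). At an unadjusted limma p of 0.05, 0 of these 10 passed, against 13.1% of all genes. Of 12 thick filament and M-band genes, 8 were negative, with a median of -0.15 (0.03 after rescaling and -0.25 without K320E-skm 4), and 3 passed at the same unadjusted p. Among the 12 were Mybpc2, the fast myosin-binding protein C (-0.48, SE 0.16, or -0.30 after rescaling), and Obsl1, an obscurin relative (-0.33, SE 0.15, or -0.17 after rescaling). Mybph, a binding protein of the same family as Mybpc2, was at 0.84 (SE 0.56) and 1.00 after rescaling, but at 0.15 without K320E-skm 4. Of 7 light chains, 5 were negative, with a median of -0.11 (0.07 after rescaling and -0.16 without K320E-skm 4), and 0 passed unadjusted. The smallest p were those of the fast essential chain Myl1 (-0.39, SE 0.21), Myl6b (-0.21, SE 0.15), Myl4, the embryonic and atrial essential chain (0.38, SE 0.31), and the fast regulatory chain Mylpf (-0.21, SE 0.19). After rescaling these stood at -0.21, -0.10, 0.55 and -0.03. Of 9 myosins of other cells, 5 were negative, with a median of 0.00 (0.16 after rescaling).

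Genes of regeneration and denervation bear on the developmental heavy chains. Of 19, 13 were tested, and 11 of these were positive, with a median of 0.19, 0.31 after rescaling and 0.37 without K320E-skm 4. At an unadjusted limma p of 0.05, 1 of the 13 passed, against 13.1% of all genes. It was Myod1, which had a negative difference, so none of the positive genes passed. Myog, a myogenic factor, was at 5.51, 20.7, 7.49 and 6.14 FPKM in the mutants and 1.63, 8.80, 7.10 and 4.37 FPKM in wild-type, with overlap. Its highest library was K320E-skm 2, the mutant lowest in Myh8 (1.74 FPKM) and in Myh3 (1.06 FPKM). The Myog means were 9.97 ± 7.21 FPKM in the mutants and 5.47 ± 3.15 in wild-type (0.73, SE 0.39, or 0.87 after rescaling). Myod1, a myogenic factor that fast fibres keep, went the other way, at 4.99, 4.25, 2.30 and 3.66 FPKM against 9.41, 5.62, 8.14 and 5.48 FPKM, without overlap (-0.77, SE 0.17, or -0.62 after rescaling), as did 9.92% of all tested genes in either direction. Gadd45a, a stress gene of denervated muscle, was at 0.46 (SE 0.30), or 0.63 after rescaling. Ankrd1, a stretch-response gene, was at 0.90 (SE 0.61) and 1.07 after rescaling, but at 0.49 without K320E-skm 4. The gamma subunit of the embryonic acetylcholine receptor, Chrng, was at 0.345 to 0.627 FPKM in the mutants and 0.0170 to 1.91 FPKM in wild-type.

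Markers of other cells were set beside these values. The 9 macrophage markers all had a positive difference, with a median of 0.30 (0.47 after rescaling and 0.62 without K320E-skm 4), and their summed level was 49.9 to 138 FPKM in the mutants and 45.4 to 133 FPKM in wild-type. The 6 endothelial markers and the 5 tested markers each of smooth muscle, adipocytes and erythroid cells were all negative, with medians of -0.23, -0.34, -0.55 and -0.43, which became -0.08, -0.17, -0.40 and -0.26 after rescaling. Without K320E-skm 4 they were -0.14, -0.39, -0.73 and -0.24. Of 7 fibroblast markers 5 were negative (median -0.20, or -0.04 after rescaling), and of 4 tested Schwann cell markers 3 were (median -0.41, or -0.26 after rescaling). Among 5 satellite cell markers, Vcam1 alone passed the filter (0.05, SE 0.19), and the summed level was 1.68 to 2.43 FPKM in the mutants and 1.58 to 2.97 FPKM in wild-type. The 9 muscle identity genes had a median of -0.17 (0.01 after rescaling and -0.26 without K320E-skm 4). No marker of these lists was at 0 in every library, and the part of other cells in the values of the heavy chains was not tested.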

How the data were processed

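Total RNA of the tibialis anterior of 8 mice (4 K320E-skm, 4 wild-type) was sequenced with a stranded kit, per the labels. The deposited values are FPKM per Ensembl gene in 1 table of the authors. The submitters' processing notes name mm10, TopHat2 2.0.10, Cufflinks 2.1.1 and CASAVA, with annotation, strand setting and bias correction not given in the sources used here. Abundant genes shift the FPKM of the others, and paralogs and overlapping genes are uncertain. All columns matched a sample by name, with 0 columns left unmapped. Nothing says that samples came from separate litters or days, so the p-values cover the spread of these samples, which may be technical.

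Gene names came from GENCODE M21 (GRCm38, with 47864 of 48328 IDs matched). Promoter and microRNA sequences came from RefSeq, which held a window at an annotated start for all 10 members. Genes at 1 FPKM or more in at least 4 libraries (10521) were fitted as log2(FPKM + 1) in limma 3.58.1 (R 4.3.3) on genotype and sex label, with a variance trend, two-sided, 5 residual degrees of freedom and Benjamini-Hochberg adjustment at 0.05; the script was tested on simulated data. A fold on this scale understates the change of low genes. Python 3.11.15, pandas 2.3.3 and matplotlib 3.10.9 served for the rest. The members, lists and tests were chosen with earlier results of these data known. Named were all members, up to 4 genes per list with the smallest p, the 5 nearest profiles of linc-Myh, Myh2 and Myh7, the genes of the chromosome 11 cluster, abundant genes listed at 0 and sex-linked genes. Ckm, Chrng, Twnk, Pax7 and Myf5 were named in addition, after their values were seen. Same-numbered libraries of both genotypes did not deviate together (r 0.156, 0.0233, 0.0442 and 0.0395), so the numbers were not taken as pairs. Alternatives were the pseudocount, the filter, scaling, sex terms, a replicate block, robust fitting, protein-coding genes alone and each library left out.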

Additional observations from a re-analysis of the deposited data

Results flagged for a closer look

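Myh4 in K320E-skm 1, at 2965 FPKM, stood apart from the other 3 libraries of its genotype, which were all listed at 0, so that the gap made up the whole range of the group. Such a test of the highest and lowest library, made on 20 groups, flags about 1 in 20 by chance where values are not tied. With 3 values tied at 0 that rate does not apply to this group. A 0 was also listed in 1 of the 4 wild-type libraries.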

How the results depend on the processing

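The counts of genes past the threshold were small and moved easily: 2 genes by genotype became 1 without a filter, 1 with a filter of 5 FPKM, 0 among protein-coding genes alone and 1 to 2 when libraries were left out in turn. By sex, 0 genes became 5 with sex taken from the sex-linked transcripts and 0 to 5 when libraries were left out, 5 of them without K320E-skm 4; the cause was not tested. The replicate block in place of the sex term gave 2 genes by genotype and 0 members, and changed no other call. Of the members 0 passed by genotype, and 0 to 1 when libraries were left out (Myh8, without K320E-skm 2); by sex 0 passed under each alternative run. Of 221 refitted values of members, 210 kept direction and side of the threshold, 10 turned direction and 1 newly passed. The genotype difference of Myh2 turned to -0.12 with sex by transcripts. With libraries left out in turn, the genotype difference ran from -0.027 (without K320E-skm 4) to 0.62 for Myh1, -0.37 to 0.89 for Myh2, 0.014 to 0.44 for Myh3, 0.054 to 0.97 for Myh7, 0.99 to 1.61 for Myh8, 0.78 to 2.40 for Myh13, -1.52 to -1.12 for linc-Myh and -8.45 to -3.73 for Myh4 (4 fits; in the others it was below the filter). The sex difference ran from -1.22 to 0.043 for Myh2, -0.36 to 0.066 for Myh3 and -1.01 to 0.62 for Myh13. The Myh2 share differed by -1.97 to 1.46 percentage points with libraries left out, -1.08 with Myh4 in the sum (1 mutant library against 3 wild-type libraries, over another total) and -0.25 without Myh13. The number of fragments behind a value is unknown, which limits the low members most: Myh6, Myh7b, Myh3, Myh7 and Myh8. In wild-type, Myh8 was at 0.432 to 2.04 FPKM, Myh3 at 0.639 to 2.57 FPKM and Myh7 at 0.153 to 4.11 FPKM.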

Other observations

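The profiles of Myh8 and Myh13 were compared with all tested genes after their values were seen. Nearest to Myh8 were Acot2, a mitochondrial acyl-CoA thioesterase, at a root mean square difference of 0.42, Arrdc2 at 0.48, Cyfip2 at 0.51, the lincRNA Gm38079 at 0.51 and Twnk at 0.51, against a spread of 0.79 of Myh8 itself. Acot2 averaged 9.32 FPKM in the mutants and 4.48 FPKM in wild-type libraries. Nearest to Myh13 were 2 genes of small RNAs, the microRNA gene Gm27512 at 0.77 and the snoRNA gene Snord49b at 0.82. Myh13 had no near neighbour among protein-coding genes: the first, Myh8, was at 1.33, against a spread of 1.72 of Myh13 itself. The genes that flank the cluster were low, Adprm at 2.09 to 3.39 FPKM and Sco1 at 1.42 to 3.27 FPKM, over the 8 libraries.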
